A study of Mus musculus with 4 samples.

Results

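Integrins are the receptors by which cells hold on to the matrix and to each other, and each is a pair of an alpha and a beta chain. Laminins are trimers of an alpha, a beta and a gamma chain, and they form the sheet of basement membrane under the colon epithelium and around its muscle, vessels and nerves. In the colon the chains divide by cell type. Leukocytes use partners of Itgb2 and Itgb7 to leave the blood and settle in the gut wall, epithelial cells anchor through Itga6 with Itgb4, and muscle and fibroblasts use several alpha chains that share Itgb1.

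The members were every gene on the array whose name is that of an integrin or laminin chain, with Itgae left out. There were 38 of them, 27 integrin and 11 laminin genes, read by 95 probes. Of these genes, 32 were tested among 19325 genes in all. At its brightest probe every tested member lay well above background on all 4 arrays, so none entered through a single group. A dimmer Lama2 probe passed the filter through the controls alone. The members that were too dim on most arrays were Itgad, Itgb2l, Itgb8, Itga2b, Itgbl1 and Lamc3. Itgbl1 encodes an integrin-like protein that is no receptor chain. Its probe read -6.32 and -6.44 in the mutants and -6.19 and -5.08 in the controls, all near background.

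RNA from the whole colon of C57BL/6 mice was measured with one-colour arrays labelled with Cy3, on day 5 of drinking dextran sulphate sodium (DSS), which injures the epithelium and causes colitis. The mutants were 2 colon samples of Junbfl/flCd4-Cre mice, in which Cre driven by Cd4 sequences deletes the floxed Junb gene in the T cell lineage. The controls were 2 samples of Junbfl/fl mice, with the same floxed alleles and no Cre. All mice had DSS, so the arrays hold no colon without it. JunB is a subunit of the transcription factor AP-1. The arrays were made to describe the mutant colon, where the submitters report worsened colitis. The labels do not give age or sex, nor whether a sample is a single mouse, so p-values measure the spread between these samples. All 7 epithelium marker genes, such as Epcam and Vil1, lay well above background on all 4 arrays.

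A signal below is the log2 intensity of a probe relative to the 75th percentile of its array. A signal of 1 is therefore a doubling over that percentile, and levels are not compared between probes. A difference is mutant minus control, given with its moderated standard error (SE) from limma, over 2 and 2 arrays. With so few arrays, precision is limited by their number. The 4 arrays lay on 1 slide and in 1 scan, with the controls at positions 1 and 2 and the mutants at positions 3 and 4, so position and genotype cannot be told apart. An array had 27935 to 29090 probes above its background. No spot was saturated. Over all tested genes the arrays correlated at r between 0.976 and 0.984. Junb itself had signals of 4.44 and 4.47 in the mutants, against 4.23 and 4.39 in the controls, and a whole tissue probe is no check of a deletion in T cells. Xist, the RNA of the inactive X chromosome, was at -0.77 and -0.55 on the replicate 1 arrays of mutant and control, and at -6.43 and -6.13 on the replicate 2 arrays. Eif2s3y, a gene of the Y chromosome, had the opposite pattern. By these genes replicate 1 was female and replicate 2 male in both genotypes, and differences within the female and the male pair are given where they help.

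Of the 95 member probes, 14 lie on a longer stretch of the mm9 genome than their own length. Of those, 5 that are placed across stretches of 2532 to 9410 bases, as a probe of spliced RNA is where it crosses an intron, are shown for chains described below. The Itgb1 pair also shows how the array reads splice forms of the shared beta chain. In that pair the capitals mark a run of 23 bases that both probes hold.
Lamb3, chr1:195167088-195169619, plus strand: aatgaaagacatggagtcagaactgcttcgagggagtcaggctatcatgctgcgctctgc
Itgb6, chr2:60438632-60443247, minus strand: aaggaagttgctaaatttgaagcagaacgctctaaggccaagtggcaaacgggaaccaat
Itga9, chr9:118796991-118806400, plus strand: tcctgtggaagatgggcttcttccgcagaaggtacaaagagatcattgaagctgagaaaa
Itgb1, chr8:131250081-131255976, plus strand: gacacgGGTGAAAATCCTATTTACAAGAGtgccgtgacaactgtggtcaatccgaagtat
Itgb1 form D, chr8:131250931-131255949, plus strand: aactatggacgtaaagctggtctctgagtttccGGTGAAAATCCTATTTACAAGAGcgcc

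No member differed between mutant and control colon past a Benjamini-Hochberg adjusted p of 0.05 over all genes in limma, and the smallest adjusted p of a member was 0.465. Called genes made up 0% of the 19325 genes tested, and 1796 genes passed an unadjusted p under 0.05. With the replicate number as a block, 46 genes passed (0.238%), none of them a member. By cell type the chains went as follows. All 5 epithelial integrin chains were higher in the mutants, most by small amounts, except that after quantile normalization Itgb4 was lower and Itga6 was at 0.00, and with the mean of the probes Itgb4 was lower. All 7 stromal integrin chains and all 3 tested stromal laminin chains were lower, except that Itga5 and Itga10 were not after quantile normalization or with some arrays left out. Leukocyte chains went both ways. At an unadjusted p under 0.05, 3 members were lower (Itga8, Itga11 and Lamb3) and none was higher. That is 9.38% of the tested members, against 9.29% of all genes tested (3.98% lower and 5.31% higher), so the share is near the background.

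The groups did not overlap for 16 of 32 members, 5 higher and 11 lower. These are 15.6% and 34.4% of the members. Among all genes tested, 43.2% did not overlap, 25.7% higher and 17.6% lower. In all, 22 members were lower, which is 68.8%, against 46.6% of all genes tested. The median difference was -0.08 over the tested members and 0.02 over all genes. The laminin genes had a median of -0.18, with 9 of 10 lower, and the integrin genes one of -0.04, with 13 of 22 lower. In the female and male pairs, 16 members were lower in both, 7 higher in both and 9 differed in sign, and the shares of all genes were not counted for this. Only Itga8 and Itga11 were at least 1.5-fold different among those tested, which is 6.25% against 8.72% of all genes.

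**Figure D1:**
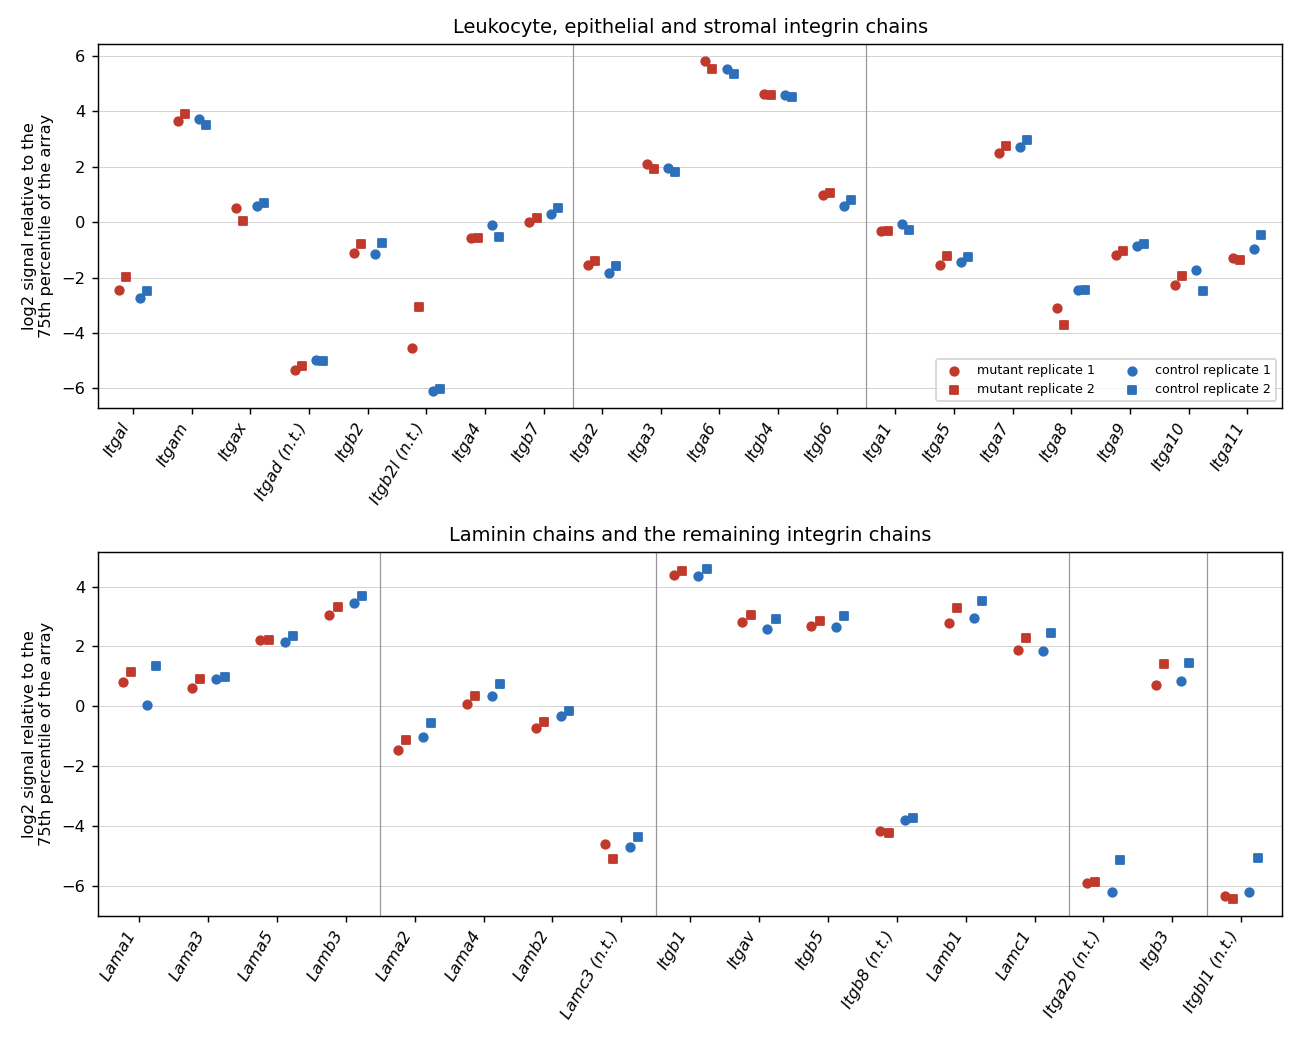
Log2 signal of the brightest probe of each member reported here, relative to the 75th percentile of its array, for the 2 mutant arrays (red, left) and the 2 control arrays (blue, right), with replicate 1 as circles and replicate 2 as squares; n.t. marks members too dim to be tested. Itga8 and Itga11 sit lower on both mutant arrays, and Itgb2l was above background on 1 mutant array alone.

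Among leukocyte chains, the alpha partners of Itgb2 had differences of both signs. Itgb2, a beta chain found on all leukocytes, had signals of -1.11 and -0.79 in the mutants, against -1.13 and -0.77 in the controls. The groups overlapped throughout. Its difference was 0.00 ± 0.21 (SE, adjusted p = 0.999), and the 95% interval ran from -0.53 to 0.53, which does not exclude shifts of that size in either direction. Itgam, which with Itgb2 forms the complement receptor of neutrophils and macrophages, had 3.64 and 3.90 in the mutants and 3.71 and 3.51 in the controls. It differed by -0.06 in the female and 0.39 in the male pair, and the groups overlapped.

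Itgal, the lymphocyte chain that with Itgb2 binds Icam1, had -2.44 and -1.997 in the mutants and -2.75 and -2.50 in the controls. Its difference was 0.40 ± 0.26 (SE, adjusted p = 0.650), higher in both pairs. A second Itgal probe, near background, gave -0.46, and the mean of both gave -0.03, so the direction differed with the choice of probe. Itgax, used by dendritic cells and macrophages, had 0.51 and 0.03 in the mutants, against 0.59 and 0.67 in the controls. Both mutants were lower, mostly through the male pair (-0.64, and -0.07 in the female pair). The difference was -0.36 ± 0.19 (SE, adjusted p = 0.613). Without mutant replicate 2 it was -0.12. A dimmer Itgax probe was well above background on 1 array, mutant replicate 1, at -0.62, against -6.28 on the other mutant array and -6.02 and -5.95 on the controls.

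Itgb7 and Itga4 together form the receptor by which lymphocytes bind Madcam1 on gut vessels. Itgb7 had -0.0047 and 0.16 in the mutants, against 0.28 and 0.50 in the controls, so both mutants lay below both controls. Its difference was -0.31 ± 0.15 (SE, adjusted p = 0.586), with -0.29 in the female and -0.34 in the male pair. Itga4 had -0.56 and -0.57 in the mutants and -0.10 and -0.52 in the controls, a difference of -0.26 ± 0.19 (SE). Control replicate 1 alone was clearly above the others, and without it the difference was -0.05. The median of the 6 tested leukocyte chains was -0.13, with 3 higher and 3 lower.

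The T cell markers were lower in 7 of 7 genes. The log2 of their summed linear signals was 1.89 to 1.97 in the mutants and 2.34 to 2.54 in the controls. All sums of marker lists here are of this kind. The brightest probes weigh most in them, so a sum does not stand for each gene of its list. B cell markers were lower in 4 of 4 genes, at 2.65 to 2.93 in the mutants and 3.04 to 3.07 in the controls. In whole tissue, fewer cells of a type and less RNA per cell cannot be told apart. Macrophage markers were lower in 5 of 6 tested genes and spanned 5.82 to 6.21 in the mutants and 5.82 to 6.34 in the controls. Of 5 dendritic cell markers 2 were tested, both lower, and Zbtb46, Xcr1 and Clec9a were near background. The part of these cells in the values of Itgb7, Itga4 and Itgax was not tested.

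Itgb2l, an Itgb2-like gene known from mouse neutrophils and bone marrow, was too dim on most arrays to be tested. Its brighter probe (chr16:96644073-96644132, mm9, minus strand) had -4.55 and -3.08 in the mutants, against -6.10 and -6.03 in the controls. It was well above background on 1 mutant array, replicate 2, and on no control array. Set against the floor of detection on the controls, the mean of the 2 mutant readings was 1.12-fold higher. The reading of mutant replicate 1 was itself not above background, so this is no minimum for the mutants. A dimmer Itgb2l probe gave -6.07 and -6.46 in the mutants and -6.20 and -4.72 in the controls, near background throughout. Of 7 neutrophil markers 5 were tested, 3 higher and 2 lower, with a sum of 5.89 to 6.31 in the mutants and 5.68 to 5.81 in the controls. The calprotectin genes S100a8 and S100a9 each differed by 2.24, with SE of 0.78 and 0.88 (unadjusted p of 0.0345 and 0.0498). Mmp9, a gelatinase, differed by 1.20 with an unadjusted p of 0.282, and its groups overlapped. Csf3r, a growth factor receptor, differed by -0.01 ± 0.13, and Ly6g, a neutrophil surface protein, by -0.14 ± 0.30 (SE). In the limma fit with the replicate number as a block, S100a8 and S100a9 passed the adjusted threshold (adjusted p of 0.0409 and 0.0236). Csf3r, Mmp9 and Ly6g did not pass it in that fit. Cxcr2 and Mmp8 were too dim to be tested, and like Itgb2l each was well above background on 1 mutant array and on no control array. Cxcr2 had -4.12 and -2.81 in the mutants, against -5.41 and -4.49 in the controls. Mmp8 had -4.16 and -1.51 in the mutants, against -5.74 and -4.16 in the controls. The part of neutrophils in the signal of Itgb2l was not tested. Itgad, the remaining partner of Itgb2, was on no array well above background, at -5.34 and -5.19 in the mutants and -4.96 and -5.00 in the controls.

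Epithelial integrin chains were higher in the mutants in 5 of 5 cases, with a median of 0.25, and in both pairs for each, except that Itgb4 was at -0.07 after quantile normalization and at -0.04 with the mean of the probes. Itgb6, which with Itgav activates latent TGF-beta at epithelial surfaces, had 0.97 and 1.04 in the mutants, against 0.58 and 0.79 in the controls. Both mutants were above both controls. The difference was 0.32 ± 0.13 (SE, adjusted p = 0.549), a 1.25-fold higher signal, and a second Itgb6 probe gave 0.25. Itga6, the laminin receptor of the epithelial base, had 5.83 and 5.53 in the mutants, against 5.53 and 5.34 in the controls. Mutant replicate 2 and control replicate 1 were nearly equal, and the difference was 0.25 ± 0.15 (SE, adjusted p = 0.638). With quantile normalization it was 0.00, with the mean of the probes 0.10 and without mutant replicate 1 also 0.10. Of 5 Itga6 probes, 4 were higher and 1 lower, from -0.24 to 0.25.

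Itgb4, the partner of Itga6 in the hemidesmosome, had 4.64 and 4.58 in the mutants and 4.58 and 4.50 in the controls. The difference was 0.07 ± 0.10 (SE, adjusted p = 0.850), with a 95% interval of -0.19 to 0.33. Its 2 dimmer probes gave -0.08 and -0.10. Itga2, a collagen receptor, differed by 0.25 ± 0.19 and Itga3, a laminin receptor, by 0.12 ± 0.13 (SE). Markers of epithelium as such were higher in 5 of 7 genes, with a median of 0.09 and a summed signal of 9.81 to 9.86 in the mutants and 9.74 to 9.76 in the controls. Their part in the values of the epithelial chains was not tested. After quantile normalization the median of the epithelial integrin chains was 0.08, and after normexp background correction 0.12.

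Stromal integrin chains were lower in 7 of 7 cases, with a median of -0.22, though Itga10 hardly at all, and after quantile normalization Itga5 was at 0.00 and Itga10 at 0.07. Without mutant replicate 1, Itga5 was at 0.13 and Itga10 at 0.16. Without control replicate 1 Itga10 was at 0.38, and without control replicate 2 Itga5 was at 0.04. Itga8, which with Itgb1 binds nephronectin and marks smooth muscle and other mesenchymal cells, had -3.11 and -3.72 in the mutants, against -2.45 and -2.44 in the controls. Both mutants lay below the controls, which were nearly equal. The probe lies at chr2:12028462-12028521 (mm9, minus strand). Its signal was 1.96-fold lower in the mutants (difference -0.97 ± 0.30, SE, unadjusted p = 0.0222, adjusted p = 0.465), with -0.66 in the female and -1.28 in the male pair. Without mutant replicate 1 the difference was -1.27 and its unadjusted p stayed under 0.05. With any of the other arrays left out, or without the filter on dim probes, it did not, and without mutant replicate 2 the difference was -0.67. Normexp correction gave -0.34.

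Itga11, a collagen receptor of fibroblasts, had -1.30 and -1.37 in the mutants, against -0.95 and -0.46 in the controls. The mutants were close together and below both controls. The probe lies at chr9:62631667-62631726 (mm9, plus strand). Its signal was 1.55-fold lower in the mutants (difference -0.63 ± 0.21, SE, unadjusted p = 0.0313, adjusted p = 0.492). The female pair gave -0.34 and the male pair -0.91. Without control replicate 1 the difference was -0.88, and without control replicate 2, the higher control, -0.38. The unadjusted p did not stay under 0.05 with quantile normalization, or with any array left out other than control replicate 1.

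Itga9, which binds tenascin and Vcam1, had -1.17 and -1.04 in the mutants, against -0.85 and -0.78 in the controls, a difference of -0.29 ± 0.15 (SE). The intron-crossing probe printed above gave -0.40. Itga7, the laminin receptor of muscle, had 2.48 and 2.76 in the mutants and 2.72 and 2.95 in the controls, and its groups overlapped (-0.22 ± 0.15, SE). Both pairs were lower, at -0.24 and -0.19. Itga1, a collagen receptor of muscle and of tissue T cells, differed by -0.15 ± 0.14 (SE) at its brightest probe, and its 5 probes ranged from -0.70 to 0.35. Itga5, the fibronectin receptor chain, differed by -0.04 ± 0.20 (SE), and Itga10 had opposite signs in the pairs, at -0.54 and 0.54.

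**Figure D2:**
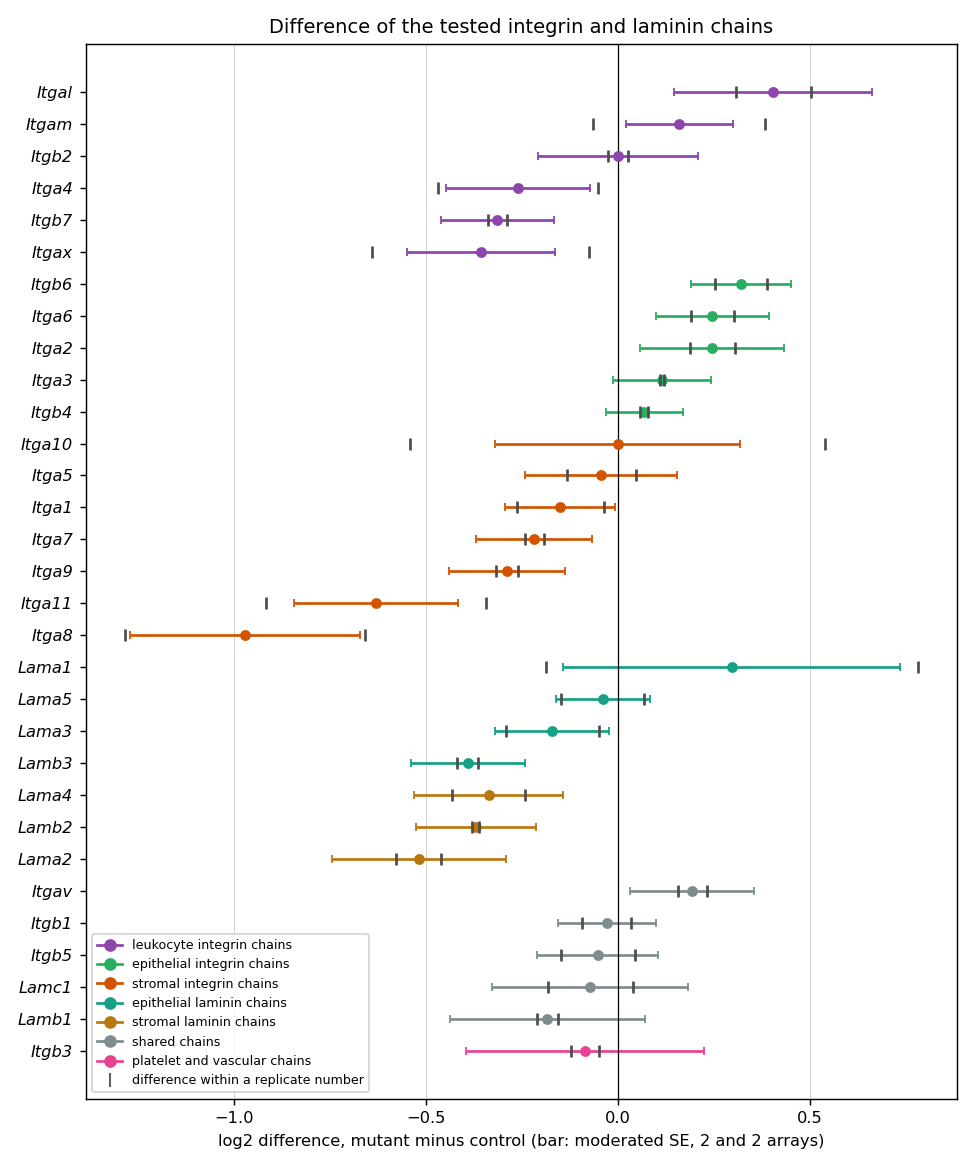
Log2 difference, mutant minus control, of the tested members reported here at their brightest probe, ordered within each chain list, with bars for the moderated SE over 2 and 2 arrays and grey ticks for the differences within replicate 1 and replicate 2. The epithelial integrin chains lie right of zero and the stromal integrin and laminin chains left of it or on it (Itgb4, Itga5 and Itga10 change sides after quantile normalization, Itgb4 also with the mean of the probes, and Itga5 and Itga10 with some arrays left out), with Itga8 at -0.97 farthest out.

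Itgb1, the beta chain that most stromal alpha chains share, differed far less than Itga8 and Itga11, a gap that was not tested itself. Itgb1 had 4.395 and 4.51 in the mutants, against 4.36 and 4.60 in the controls. The groups overlapped, and the difference was -0.03 ± 0.13 (SE, adjusted p = 0.957), with a 95% interval of -0.35 to 0.30. The intron-crossing Itgb1 probe gave -0.02. The probe of form D, a splice form known from striated muscle, was on no array well above background, at -6.02 and -6.22 in the mutants and -6.03 and -6.02 in the controls. Itgav, the alpha chain shared by Itgb3, Itgb5 and Itgb6, differed by 0.19 ± 0.16 and Itgb5 by -0.05 ± 0.16 (SE). Itgb8, another partner of Itgav, was on no array well above background. Its brightest probe had -4.15 and -4.24 in the mutants, against -3.79 and -3.74 in the controls. Itgb3, found on platelets and vessels, had 0.72 and 1.41 in the mutants and 0.85 and 1.46 in the controls, and its groups overlapped (-0.09 ± 0.31, SE). Its platelet partner Itga2b was on no array well above background. Of 5 platelet markers 3 were tested, 1 higher and 2 lower, with sums of 0.83 to 1.57 in the mutants and 0.84 to 2.09 in the controls.

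Stromal laminin chains were lower in all 3 tested cases, in both pairs. Their groups did not overlap, which in this direction held for 17.6% of all genes tested. Their median was -0.37. Lama2, the alpha chain around muscle and nerve, had -1.47 and -1.14 in the mutants, against -1.01 and -0.56 in the controls. The higher mutant lay just under the lower control. The difference was -0.52 ± 0.23 (SE, adjusted p = 0.565), and without control replicate 2 it was -0.29. Lamb2, its beta partner in muscle, had -0.71 and -0.51 in the mutants, against -0.33 and -0.15 in the controls (-0.37 ± 0.16, SE, adjusted p = 0.564), with -0.38 and -0.36 in the pairs. Lama4, the alpha chain of vessels and muscle, had 0.09 and 0.33 in the mutants, against 0.33 and 0.76 in the controls (-0.34 ± 0.19, SE). Its higher mutant and lower control were nearly equal, and without control replicate 2 the difference was -0.12. Lamc3 was on no array well above background.

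Smooth muscle markers were lower in 8 of 8 genes, with a median of -0.60 and a summed signal of 8.16 to 8.22 in the mutants and 8.60 to 8.73 in the controls. Endothelial markers were lower in 5 of 5 genes, with a median of -0.39 and a sum of 0.73 to 1.17 in the mutants and 1.28 to 1.49 in the controls. Fibroblast markers were lower in 5 of 5 genes with a median of -0.10, and their sums overlapped, at 5.98 to 6.38 in the mutants and 5.99 to 6.61 in the controls. Enteric glia markers were lower in 3 of 4 genes with a median of -0.35, and S100b, a glial calcium-binding protein, differed by -0.54 ± 0.18 (SE, unadjusted p = 0.0301). Their summed signal was 0.06 to 0.26 in the mutants and 0.47 to 0.54 in the controls. The part of these cells in the stromal chains was not tested.

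**Figure D3:**
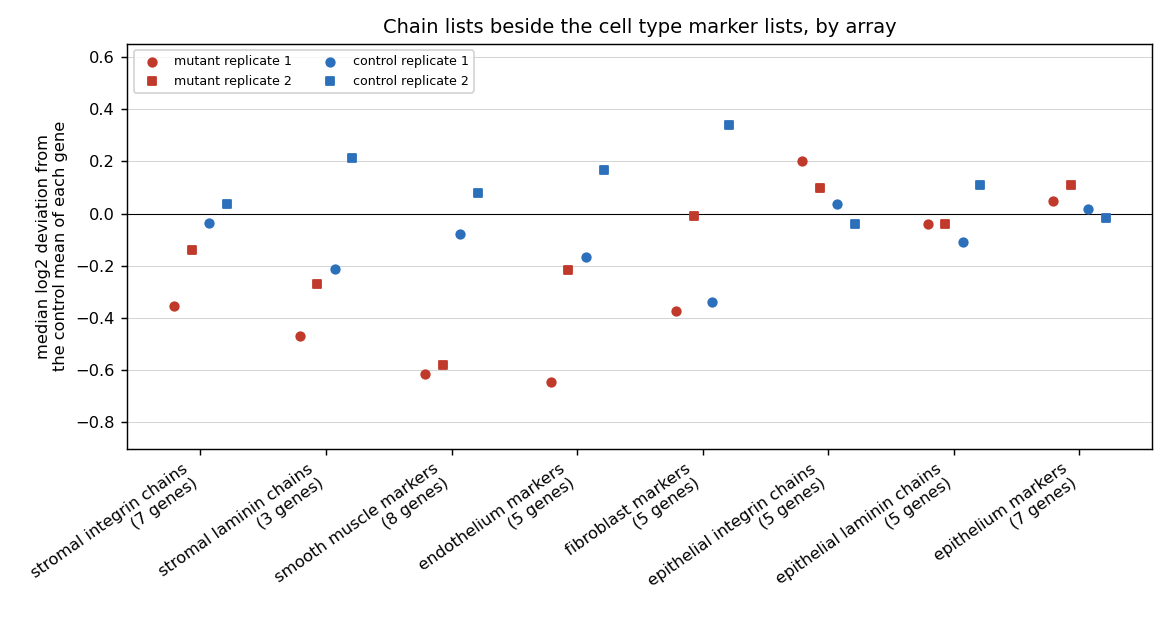
Median log2 deviation of each list's tested genes from their control mean, per array, for the stromal and epithelial chain lists and for the marker lists of the same cell types (mutants red and left, controls blue and right). Stromal integrin chains stood at -0.35 and -0.14 on the mutant arrays, smooth muscle markers at -0.61 and -0.58, and epithelial integrin chains at 0.20 and 0.10.

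Of the epithelial laminin chains described here, Lamb3, Lama3 and Lama5 were lower and Lama1 was higher. Lamb3, the beta chain that joins Lama3 in the anchoring laminin under epithelium, had 3.05 and 3.33 in the mutants, against 3.47 and 3.69 in the controls. Both mutants lay below both controls. Its brightest probe lies at chr1:195170009-195170068 (mm9, plus strand) and was 1.31-fold lower in the mutants (difference -0.39 ± 0.15, SE, unadjusted p = 0.0452, adjusted p = 0.528). The female pair gave -0.42 and the male pair -0.36. The unadjusted p did not stay under 0.05 with the mean of the probes, with no intensity trend, or without control replicate 2 or mutant replicate 1, where the differences were -0.28 and -0.25. The intron-crossing Lamb3 probe printed above had 1.62 and 1.90 in the mutants, against 1.98 and 2.22 in the controls, a difference of -0.34.

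Lama3, the alpha partner of Lamb3, had 0.62 and 0.93 in the mutants and 0.92 and 0.98 in the controls, overlapping (-0.17 ± 0.15, SE), and a second Lama3 probe gave 0.07. Lama5, the main alpha chain of mature epithelial basement membrane, differed by -0.04 ± 0.12 (SE). Lama1 had 0.81 and 1.16 in the mutants and 0.03 and 1.35 in the controls, with the controls farther apart than the group means. Without control replicate 2 it differed by 0.95 and without control replicate 1 by -0.36.

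The chains Lamb1 and Lamc1, which occur in most laminins, differed by -0.18 ± 0.25 and -0.07 ± 0.26 (SE). Of the 3 Lamb1 probes that passed, the dimmest gave -0.45 and the others -0.18 and 0.07. Both chains were higher on the replicate 2 array in each genotype. Lamb1 stood 0.50 higher on replicate 2 than on replicate 1 in the mutants and 0.55 higher in the controls. For Lamc1 the same gaps were 0.41 and 0.63, and for Itgb3 they were 0.69 and 0.62. Of the 32 tested members, 21 were higher on replicate 2 in both genotypes and 5 lower in both. The share of all genes with these patterns was not counted, so they are not shown to be particular to the members. Sex and the replicate number cannot be told apart here.

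**Figure D4:**
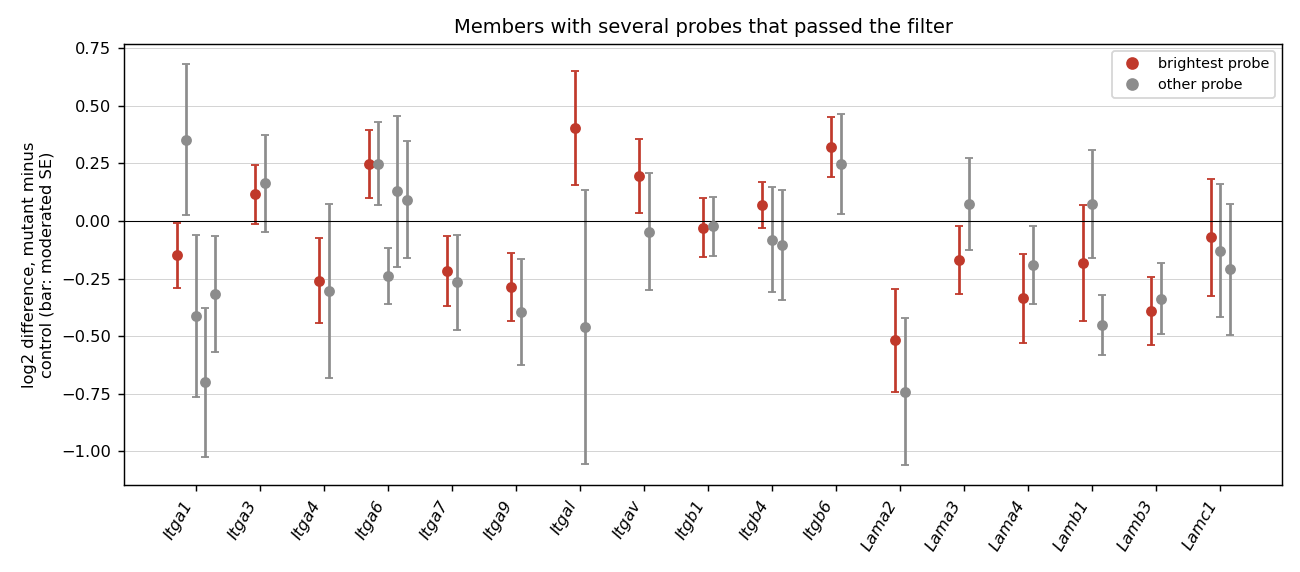
Log2 difference, mutant minus control, of every probe that passed the filter, for the 17 members with several, with bars for the moderated SE; the brightest probe of each gene is red. In 7 members the probes differ in sign, and in Itga1 they range from -0.70 to 0.35. The dimmer Lama2 probe, at -0.74, was well above background on the 2 control arrays and on no mutant array.

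Of the genes that work with these chains, 48 were tested and none passed the adjusted threshold in limma. An unadjusted p under 0.05 was reached by 4 of them, which is 8.33%, against 9.29% of all genes tested. Of 20 tested integrin activators and adaptors, 14 were lower and 6 higher (median -0.10), and 2 were lower at an unadjusted p under 0.05. These were Tns1 and Lims2. Tns1, a tensin that ties integrins to actin, had 3.04 and 3.28 in the mutants, against 3.64 and 3.84 in the controls (-0.58 ± 0.14, SE, adjusted p = 0.418). Lims2, an adaptor in the complex of integrin-linked kinase, had 1.67 and 1.77 in the mutants, against 2.16 and 2.47 in the controls (-0.60 ± 0.14, SE, adjusted p = 0.418). Both were lower on each mutant array than on either control. Vcl, encoding vinculin, differed by -0.25 ± 0.11 (SE), and Tln1, the talin that activates integrins, by -0.08 ± 0.10 (SE).

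Of 10 tested basement membrane partners of laminin, 9 were lower (median -0.16). Col4a6, a collagen chain of the muscle basement membrane, had -1.56 and -1.93 in the mutants, against -1.10 and -0.83 in the controls (-0.78 ± 0.21, SE, unadjusted p = 0.0136, adjusted p = 0.428). Both mutants lay below both controls. The main collagen chains Col4a1 and Col4a2 each differed by -0.01, with SE of 0.29 and 0.30. All 4 hemidesmosome partners were slightly lower (median -0.11), led by Col17a1 at -0.39 ± 0.29 (SE).

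Among counter-receptors and ligands, 4 of 8 tested were higher. Icam1, the endothelial and epithelial ligand of Itgal and Itgam with Itgb2, had 1.56 and 1.89 in the mutants, against 0.79 and 0.98 in the controls. Its signal was 0.84 ± 0.16 higher on the log2 scale (SE, unadjusted p = 0.00307, adjusted p = 0.418), at 0.77 in the female and 0.92 in the male pair. Both mutants lay above both controls. Vcam1, the ligand of Itga4 and Itga9, differed by 0.14 ± 0.35 (SE), and Fn1, the fibronectin read by Itga5, by -0.21 ± 0.20 (SE). Madcam1 was on no array well above background. Other laminin receptors were higher in 4 of 6 cases. Rpsa, which encodes a ribosomal protein also described as a laminin receptor, differed by 0.27 ± 0.12 and the dystroglycan gene Dag1 by 0.01 ± 0.11 (SE).

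Since JunB is an AP-1 subunit, promoters of the members were searched for the AP-1 motif TGAGTCA on both strands. RefSeq promoters on GRCm38.p6, from 250 bases before to 50 bases after a gene start, were at hand for 25 of the 38 members. The motif was in 2 of their 28 promoters, those of Itgax and Itga9, and in 5.2% of all 32851 promoters of the table. In Itgax it starts at position -56 from the gene start and stands in capitals in the 120 bases upstream. In Itga9 it starts at position 39. The match is a description of these letters.
Itgax promoter, chr7:128129430-128129549, plus strand: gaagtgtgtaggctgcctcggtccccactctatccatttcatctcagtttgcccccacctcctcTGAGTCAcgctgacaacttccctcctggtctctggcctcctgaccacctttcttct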

How the data were processed

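Per the file headers, the authors' scanner output gives a linear intensity for each spot, from Agilent Feature Extraction 11.5.1.1. Its processed intensity was background-subtracted and detrended, per the file headers, which record no normalization between arrays. Other deposited columns are yes or no flags for spots above background, saturation and outliers.

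From 59305 non-control spots, log2 of the processed signal minus the 75th percentile of the array was taken. Spots of a probe were averaged without outliers, which removed 11 of 56605 probes. Probes well above background on at least 2 arrays were kept, and the brightest stood for its gene. Mutant minus control was fitted over 19325 genes with limma 3.58.1 in R 4.3.3 (intensity trend, two-sided, no block, Benjamini-Hochberg adjustment). The fit was also run on simulated data with planted changes larger than that of any tested member, which is no check for smaller ones. The p-values given reflect the spread among 2 and 2 samples. To set a dim probe against the floor, the mean of the brighter group was used, including its readings not above background. It was compared with the higher, on each array of the other group, of the lowest signal above background and the probe's own. Names are the array's and coordinates are on mm9.

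Members and lists were chosen with earlier results of these data known. All members are named except 1 that is not reported here. Values by array were to be given for those at an unadjusted p under 0.05, at least 1.5-fold different, or the beta chains Itgb1, Itgb2, Itgb4 and Itgb7, and up to 3 genes of smallest p from each further list were to be named. Values by array of other members, and Tln1, Col4a1, Col4a2, Vcam1, Madcam1, Dag1 and the marker genes, were added after their values were seen. Alternatives were normexp, quantile normalization, other filters, the mean of probes, no trend, the replicate number as a block and each array left out.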

Additional observations from a re-analysis of the deposited data

How the results depend on the processing

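No member passed the adjusted threshold under any alternative run. With the replicate number as a block, 46 genes passed, against 0 without it, and the smallest adjusted p of a member was 0.155. In that fit, 2 members were higher and 7 lower at an unadjusted p under 0.05. The share of all genes at that threshold was not counted for the fit with the block or for the other alternatives. The counts of members in this paragraph therefore cannot be set against a background. By Xist and Eif2s3y the replicate number goes with sex, and the fit without a block leaves that difference in its spread. Deviations of arrays with the same number correlated at 0.239, which with 2 numbers does not settle whether they share more than sex. Without the filter on dim probes 2 members were higher at an unadjusted p under 0.05. With an array left out, 0 to 2 were higher (2 without control replicate 2) and 1 to 4 lower (1 without control replicate 2 or mutant replicate 2). The median of epithelial integrin chains was 0.123 with normexp, 0.0756 with quantile normalization and 0.0963 to 0.203 with an array left out. With an array left out, the median ranged from -0.136 to -0.0368 for leukocyte integrin chains, from -0.353 to -0.141 for stromal integrin chains and from -0.549 to -0.270 for stromal laminin chains. The cause of these shifts was not tested.

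Some small differences changed sign. With quantile normalization, Itga10 was at 0.0673, Itga5 at 0.00356 and Itgb4 at -0.0676. With the mean of the probes, Itgal was at -0.0278 and Itgb4 at -0.0382. With an array left out, the range was -0.384 to 0.384 for Itga10, -0.219 to 0.133 for Itga5, -0.182 to 0.183 for Itgb2, -0.359 to 0.954 for Lama1, -0.150 to 0.0932 for Itgb1, -0.430 to 0.260 for Itgb3, -0.231 to 0.126 for Itgb5, -0.147 to 0.0692 for Lama5, -0.460 to 0.0948 for Lamb1 and -0.385 to 0.243 for Lamc1. Signals near background limit Itga8, Itgal and Itgb2l.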
